A study of Homo sapiens with 2 samples.

Results

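Summits of p52 ChIP-seq that lay inside processed pseudogenes were gathered from TWEAK-treated MDA-MB-231 cells, an established human line of triple-negative breast cancer. A summit was taken as a member when its 1-based hg38 position on chromosomes 1 to 22, X and Y fell inside a GENCODE processed pseudogene and in no exon of a protein-coding gene. Replicate 1 held 278 members among 1804 summits on these chromosomes, a share of 15.4% with a Wilson 95% interval of 13.8 to 17.1%. Replicate 2 held 176 among 1225, a share of 14.4% with an interval of 12.5 to 16.4%, and the mean over the replicates was 14.9 ± 0.737% (SD, n = 2). The complete lists, with all other sequences of the assembly, held 2007 and 1467 summits.

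The study mapped p52 after activation of Fn14 by its ligand TWEAK, as part of work on enhancers, and its labels gave 1 group of 2 replicates, both starved for 8 h and then given 10 ng/ml TWEAK for 48 h with renewal after 24 h. The labels do not say whether the replicates came from separate cultures, and the line could not be checked against marker genes because summit lists hold no RNA. Neither an untreated nor an input library was analysed here, although the study's methods for ChIP-seq in general state that input signal was subtracted during peak calling. The values are −log10 q at each summit, which depend on a read depth that is unknown here, so they were read within a list. Tests and intervals were made over the summits within a list and cover counting error over summits only, and pseudogenes of the same parent share sequence, so their summits are not independent.

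A processed pseudogene arises when a spliced mRNA is copied back into DNA and inserted elsewhere in the genome, so it carries the exons of its parent gene joined without introns and usually lacks the parent's promoter. Abundantly transcribed housekeeping genes, such as those of ribosomal proteins, have left many such copies. p52 is the DNA-binding subunit made from NFKB2 in the non-canonical NF-κB pathway, and NF-κB dimers recognise the κB motif, while AP-1 factors of the JUN and FOS families recognise TGACTCA or TGAGTCA.

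The summits in EEF1A1P5 and RPS18P5, among the strongest 3 of the members in both lists, lay in sequence that was the same, or nearly the same, as the spliced mRNA of a gene on another chromosome. Their windows in replicate 1 are shown with the matching stretch of the parent mRNA, as 81 bases centred on the summit on the strand of the pseudogene (hg38). Capitals mark bases that differ between a pseudogene and its parent mRNA.
EEF1A1P5 (chr9:133019686-133019766, plus strand): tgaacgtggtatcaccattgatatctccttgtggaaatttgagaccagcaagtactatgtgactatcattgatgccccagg
RPS18P5 (chr3:101576708-101576788, minus strand): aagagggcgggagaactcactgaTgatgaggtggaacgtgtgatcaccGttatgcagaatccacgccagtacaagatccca
RPS18 mRNA, positions 205 to 285: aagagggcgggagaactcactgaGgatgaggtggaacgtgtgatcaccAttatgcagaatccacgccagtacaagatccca

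The EEF1A1P5 run was identical to positions 264 to 344 of the EEF1A1 mRNA. The RPS18P5 run differed from its parent at 2 bases. An exon junction of RPS18 fell after the base numbered 30 of the run, so that in the gene itself these letters are interrupted by an intron. Both stretches are coding sequence.

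A κB match was rare in the pseudogenes, and where it could be compared the parent mRNA carried it too. Windows of 50 bases from 3 of them are shown because each had a κB match within 100 bp of a summit in both replicates. Capitals mark the match, which reads on the opposite strand in the last pair.
RPS3P3 (chr3:184150101-184150150, plus strand): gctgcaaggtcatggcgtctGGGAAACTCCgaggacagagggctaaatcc
ENSG00000185641 (chr5:116052079-116052128, minus strand): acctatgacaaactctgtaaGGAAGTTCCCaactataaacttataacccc
RPL21P16 (chr10:120355004-120355053, minus strand): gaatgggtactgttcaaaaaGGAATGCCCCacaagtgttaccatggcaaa

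The members fell in 266 different pseudogenes in replicate 1 and in 170 in replicate 2, out of 10660 annotated on these chromosomes. These are 2.50% and 1.59% of the annotated copies. Of the 281 pseudogenes with a summit in either list, 155 had one in both, which is 58.3% of those of replicate 1 and 91.2% of those of replicate 2. Most copies held a single summit, while 12 pseudogenes in replicate 1 and 6 in replicate 2 held more. GENCODE listed 20 of the members of replicate 1 and 13 of replicate 2 in transcribed processed pseudogenes, and 1 member of replicate 1 in a translated one. The span of a protein-coding gene enclosed 101 members (36.3%) and 58 members (33.0%), outside its exons. In replicate 1 the members in PSMA6P1 and KRT18P10, with a −log10 q of 5.98 and 3.25, lay on chromosome Y. Replicate 2 had no summit on that chromosome. Whether these cells carry chromosome Y was not checked, so the place of these summits is uncertain.

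A parent gene could be read from the symbol and aligned for 231 members of replicate 1 and 149 of replicate 2. The parent so named was among the best transcript matches of blastn for 226 and 146 of them. The remaining 47 and 27 members sat mainly in pseudogenes known by an Ensembl identifier alone, and each had a best transcript match. The members represented 180 parents in replicate 1 and 116 in replicate 2, with 109 in both lists, and 145 and 92 of these parents were represented by 1 pseudogene.

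The parents were largely genes of protein synthesis and other housekeeping functions. Copies of large-subunit ribosomal protein genes held 62 members (22.3%) in replicate 1 and 58 (33.0%) in replicate 2. Copies of small-subunit genes held 40 (14.4%) and 35 (19.9%). Of the 47 large-subunit parents with annotated copies, 38 had a copy with a summit in replicate 1 and 36 in replicate 2, and of 33 small-subunit parents 21 and 17 had one. These parents have many copies, and 4.84% and 4.66% of the 1095 large-subunit copies held a summit, beside 3.47% and 2.25% of the 6369 annotated copies whose parent could be read from the symbol. Of the 493 small-subunit copies, 5.27% and 4.46% held one. Shares of copies given for the other groups are counted in the same way, and none was tested.

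The strongest ribosomal members were RPL13AP5, with a −log10 q of 272 and 104 in replicates 1 and 2, and RPS18P5, with 242 and 125. The median −log10 q of the large-subunit copies was 36.3 and 16.8, and that of the small-subunit copies 40.6 and 24.0. Both medians were above those of all members, 15.8 and 13.7.

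Copies of translation factor genes held 21 and 11 members, with summits in 8.72% and 4.62% of their copies, and included the strongest pseudogene summit of both lists, in EEF1A1P5, a copy of the gene for the elongation factor that brings aminoacyl-tRNA to the ribosome. Its −log10 q was 452 in replicate 1 and 238 in replicate 2. The median of the translation factor copies was 10.5 and 9.90, so EEF1A1P5 stood far above its group. EEF1A1 also had the copies EEF1A1P6, with 131 and 85.1, and EEF1A1P13, with 3.24 in replicate 1 and no summit in replicate 2.

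Cytoskeletal genes gave 17 and 10 members (5.51% and 3.54% of copies), led by TMSB4XP8, a copy of the thymosin β4 gene whose product sequesters actin monomers, at 178 and 90.1. Chaperone and protein folding genes gave 18 and 11 (7.18% and 3.35%), led by PPIAP22, a copy of the cyclophilin A gene, at 179 and 93.0. Glycolytic genes gave 9 and 7 (8.65% and 5.77%), led by GAPDHP1 at 128 and 48.3, and 6 and 5 of the 10 glycolytic parents were represented. RNA-binding and nucleolar genes gave 21 and 11 (5% and 2.94%), with NPM1P27 strongest in replicate 1 (49.5) and HNRNPA1P7 in replicate 2 (30.5).

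Chromatin genes gave 14 and 8 (5.73% and 3.08% of copies), with PTMAP2 leading replicate 1 (87.5) and PTMAP5 replicate 2 (46.8), both copies of the gene for the acidic nuclear protein prothymosin α. Mitochondrial and redox genes gave 15 and 6 (4.17% and 1.49%, the latter below the share of all copies), led by PRDX1P1, a copy of the gene for a mainly cytosolic peroxiredoxin, at 30.0 and 18.4. Genes of iron storage, ubiquitin and the proteasome gave 8 and 4 (4.41% and 2.94%), led by SKP1P1 in replicate 1 (20.9) and FTLP3 in replicate 2 (11.5). Parents in none of these groups gave 53 and 15 members, and 1.24% and 0.436% of their 2980 annotated copies held a summit. The strongest of them were NME2P1 in replicate 1 at 27.1 and ANXA2P2 in replicate 2 at 13.2, far below the leaders of the ribosomal groups.

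Pseudogene summits were strong within each list. Their median −log10 q of 15.8 in replicate 1 compared with 6.27 at summits in protein-coding exons and 11.2 at all other summits. In replicate 2 the medians were 13.7, 5.86 and 9.37. The strongest 25% of the list contained 42.8% of the members in replicate 1 and 42.6% in replicate 2. Among the 10 strongest summits 6 and 5 were members, and among the 100 strongest 46 and 33.

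**Figure D1:**
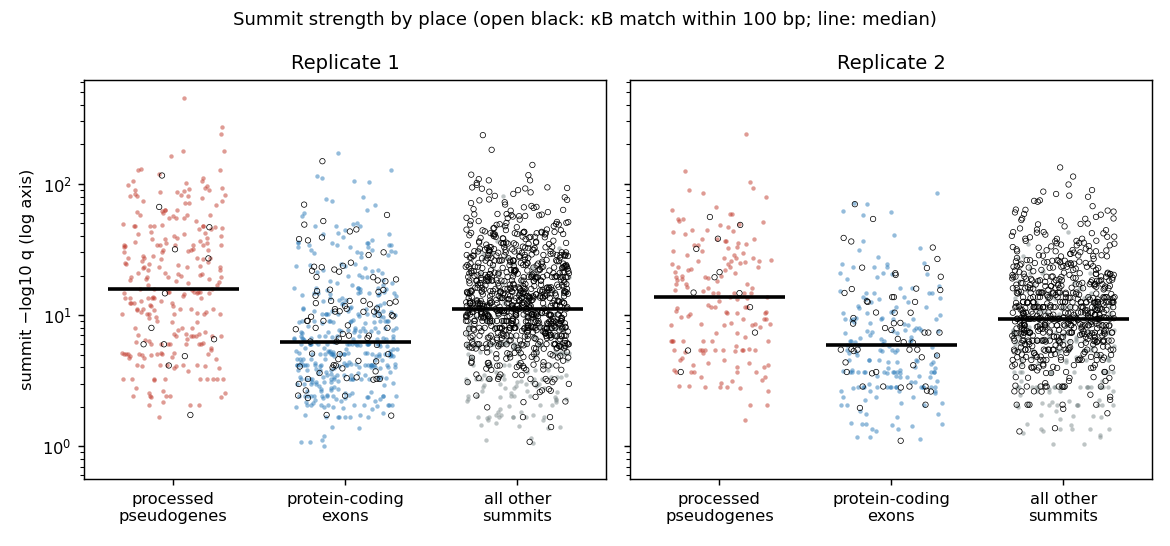
Summit strength as −log10 q on a log axis for summits in processed pseudogenes, in protein-coding exons and elsewhere, in each replicate. Horizontal lines are medians (15.8, 6.27 and 11.2 in replicate 1, 13.7, 5.86 and 9.37 in replicate 2), and open black circles, which have a κB match within 100 bp, fill the right-hand column and are scarce among the pseudogenes.

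A κB match was scarcer at pseudogene summits than at other summits. No share was measured in sequence without a summit, so whether members fall below that level was not tested. In replicate 1, 13 of 278 members (4.68%, Wilson 95% interval 2.75 to 7.84%) had a match on either strand within 100 bp, against 925 of 1526 other summits (60.6%) and 52% of all summits of the list. The odds ratio was 0.0330 (95% interval 0.0189 to 0.0576; two-sided Fisher's exact test, adjusted p = 5.29e-76 over 6 tests). In replicate 2, 12 of 176 members (6.82%, 3.94 to 11.5%) had a match, against 690 of 1049 other summits (65.8%) and 57.3% of all summits. The odds ratio was 0.0396 (0.0220 to 0.0713; Fisher's exact test, adjusted p = 1.96e-52). The mean share over the replicates was 5.75 ± 1.51% at members and 63.2 ± 3.65% at other summits (SD, n = 2).

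Summits in protein-coding exons lay between these levels, with a κB match at 18.9% in replicate 1 and 24.2% in replicate 2, while the summits outside both pseudogenes and exons had one at 79.2% and 78.1%. A κB match was also scarce at members in windows that occur mostly once in the genome, at 5 of 151 in replicate 1 and 2 of 84 in replicate 2. Strength did not go with the motif among members in a like way in both lists. The median −log10 q was 7.98 with a match and 15.8 without in replicate 1, and 17.1 and 13.3 in replicate 2.

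AP-1 elements were also scarcer at members than at other summits. Replicate 1 had 3 members with a match (1.08%) against 9.17% of other summits and 7.93% of all summits, an odds ratio of 0.125 (0.0431 to 0.365; Fisher's exact test, adjusted p = 1.93e-07). Replicate 2 had 2 members (1.14%) against 8.77% of other summits and 7.67% of all, an odds ratio of 0.148 (0.0418 to 0.526; Fisher's exact test, adjusted p = 1.29e-04). The mean share at members was 1.11 ± 0.0405% (SD, n = 2). Exon summits had comparably few AP-1 matches, 2.13% and 0.417%, so the summits outside exons and pseudogenes, with 12.3% and 11.2%, carried most of them.

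**Figure D2:**
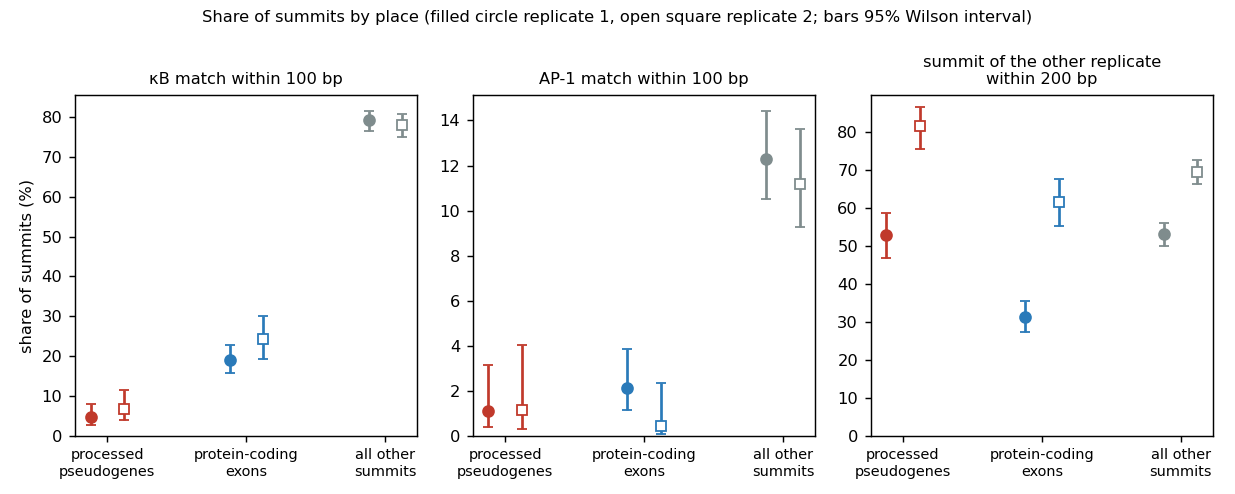
Share of summits with a κB match, with an AP-1 match and with a summit of the other replicate nearby, by place of the summit. Filled circles are replicate 1, open squares replicate 2 and bars Wilson 95% intervals, and κB matches rise from 4.68% and 6.82% in pseudogenes to 79.2% and 78.1% outside pseudogenes and exons.

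Altogether 19 pseudogenes had a κB match in either list, and 6 had one in both, namely RPS3P3, RPL7P1, ENSG00000185641, RPL21P16, RPL21P119 and RPL21P75. Ribosomal protein genes were the parents of 7 of the 13 in replicate 1 and of 10 of the 12 in replicate 2. Where the matched bases could be placed on a parent read from the symbol, the parent mRNA had the same match at the same place in 14 of 14 pseudogenes. RPL21 and RPL10 each gave more than 1 of these. Among parents with at least 3 annotated copies, copies with a summit had a median identity of 97.1% to the parent mRNA. No comparison with other aligned stretches was made. RPS3P3, a copy of the gene for the small-subunit protein that lies at the mRNA entry of the ribosome, had the strongest of these summits in replicate 1, with a −log10 q of 116, and 48.6 in replicate 2. RPL7AP6 had the strongest in replicate 2 at 55.9. RPL7P1 followed in replicate 1 at 66.7 and had 31.9 in replicate 2.

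These matches did not sit at the summits. The centre of the nearest match was a median of 45.5 bp from the summit at members and 6.50 bp at other summits in replicate 1, and 43.0 and 7.50 bp in replicate 2. It was within 20 bp at 3 of 13 and 4 of 12 members, against 76.2% and 77.2% of other summits with a match. In RPS3P3 the match lay 54.5 bp from the summit of replicate 1 and 3.50 bp from that of replicate 2, so the distance also moved with the placement of the summit. RPL21P75 had its summit at the same base in both lists, 4.50 bp from the centre of its match, with a −log10 q of 4.86 and 5.37.

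Whether a member recurred in the other replicate depended on the list it was read from. In replicate 1, 147 of 278 members (52.9%) had a summit of replicate 2 within 200 bp, against 46.4% of other summits and 47.4% of all, an odds ratio of 1.30 (1.00 to 1.67; Fisher's exact test, adjusted p = 0.0501), which did not pass the threshold of 0.05. In replicate 2, 144 of 176 members (81.8%) recurred, against 67.8% of other summits and 69.8% of all, an odds ratio of 2.12 (1.42 to 3.16; Fisher's exact test, adjusted p = 1.52e-04). Both shares describe the same pair of lists, read from either side. The other summits are of 2 kinds. Those in protein-coding exons recurred at 31.3% in replicate 1 and 61.7% in replicate 2, and the remaining summits at 53.1% and 69.6%. In replicate 1 members thus recurred about as often as summits outside pseudogenes and exons. Members were not tested against that class alone. In replicate 1 the same exact test passed within 500 bp and with 1 summit per parent (adjusted p = 0.0314 and 0.0221). It did not pass within 100 bp, in the stronger 50% of each list or in lists of equal length (odds ratios 1.13, 1.17 and 1.24). The 1 summit kept per parent was the strongest, and other summits were not thinned. Because shared members are the stronger ones, that setting favours members and cannot decide the question. Strength moved with sharing, with a median −log10 q of 34.2 at shared and 6.57 at unshared members of replicate 1 and of 15.8 and 4.89 in replicate 2. Its part in the difference was not tested.

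Recurring members were placed less sharply than summits outside exons. The median distance between the paired summits was 29.0 bp at members of replicate 1 and 28.5 bp at those of replicate 2, against 10.0 bp in both lists at summits outside pseudogenes and exons. The distance was within 10 bp at 24.5% and 24.3% of shared members and at 50.8% and 50.6% of the latter. Exon summits were like the pseudogenes in this respect, with medians of 39.0 and 38.5 bp. These differences in placement were not tested.

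Short reads cannot tell identical copies apart, so the number of copies of each window was counted. Windows in which at least 50% of the 31-mers occurred more than once in the genome made up 127 members (45.7%) in replicate 1, beside 21.7% of all summits, and 92 members (52.3%) in replicate 2, beside 26.8%. Exon summits had 17.4% and 22.9%, and the remaining summits 17.2% and 22.4%. With 51-mers the share of members fell to 27.7% and 31.8%, beside 7.20% and 12.5% of the remaining summits. By 31-mers, multi-copy members had a median −log10 q of 31.2 and 15.6, and single-copy members one of 11.7 and 10.1. The typical 31-mer of the EEF1A1P5 window occurred 7 times in the genome and that of PPIAP22 12 times, whereas in RPL37AP1, with a −log10 q of 111 and 78.9, it occurred once. Which copy the reads of a multi-copy window came from is therefore uncertain, the parent gene included. Binding of p52 at these places was not tested.

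The copies with summits tended to be those most like their parent mRNA. Among parents with at least 3 annotated copies, 190 copies of 144 parents with a summit in either list had a median identity of 97.1% to the parent mRNA, against 88.7% in the 2335 copies without one. Of these 190 copies, 124 (65.3%) were the most identical of their family and 177 (93.2%) ranked among the most identical 3. Of the copies without a summit, 0.899% and 11.0% held these ranks. Each copy in a family of 3 is among the most identical 3. The median family size was 12 for copies with a summit and 38 for copies without. Within replicates, 67.2% and 65.6% of the copies with a summit ranked highest. For either list the share fell to 51.1% when copies were ranked by the number of identical bases, which also counts length.

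RPL21 had 131 annotated copies, and its 3 with summits, RPL21P16, RPL21P75 and RPL21P119, ranked 1, 2 and 4 by identity, at 100%, 99.8% and 99.4%. RPL21P16 had a −log10 q of 31.7 and 14.7 in replicates 1 and 2, above the medians of all members, while RPL21P75 and RPL21P119 lay below them, between 4.86 and 7.35. EEF1A1 had 45 copies, and EEF1A1P5, EEF1A1P6 and EEF1A1P13 ranked 1, 2 and 3 at 99.7%, 99.4% and 98.1%. The order of identity was here also the order of strength in replicate 1, 452, 131 and 3.24. GAPDH had 64 copies, and GAPDHP1 and GAPDHP65 ranked 1 and 2 at 95.9% and 94.7%, with a −log10 q of 128 and 12.3 in replicate 1 and of 48.3 and 14.8 in replicate 2.

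RPL5 and HSPA8 had the most copies with summits, 4 each. HSPA8 encodes the constitutive HSC70 chaperone, and its copies HSPA8P8, HSPA8P5, HSPA8P1 and HSPA8P9 held the ranks 1 to 4 among 16, at 94.1% to 93.3%. RPL5 was the looser family. Its copies RPL5P1 and RPL5P34 ranked 1 and 2 of 34, while RPL5P4 and RPL5P23 ranked 6 and 16 at 93.7% and 91.7%. FTH1, the ferritin heavy chain gene, also had copies of lower rank, FTH1P8, FTH1P7 and FTH1P10 at 2, 3 and 7.

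**Figure D3:**
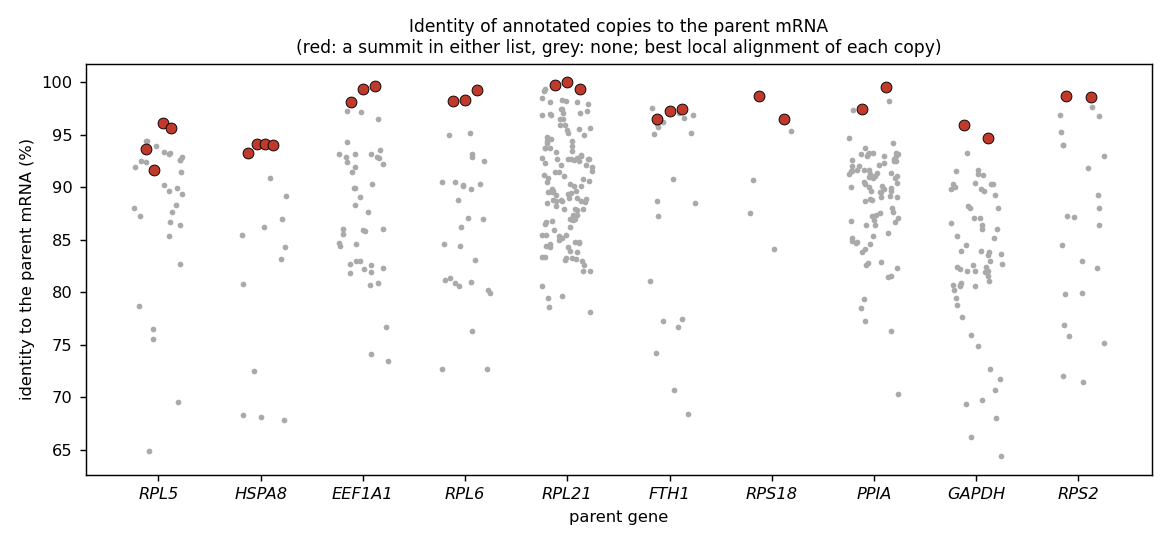
Identity of each annotated copy to the parent mRNA (percent, best local alignment) for the 10 parents with the most copies holding summits. Red points are copies with a summit in either list and grey points copies without one, and the red points sit at or near the top of each family, with RPL5P23 (91.7%) and FTH1P10 (96.5%) lower in theirs.

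Identity near the summit was mostly above that of the whole copy. Other windows of the same copies were not measured, so whether summits lay in better-preserved stretches than the rest was not tested. Identity within 50 nt of the summit had a median of 98.0% in replicate 1, against 96.1% over the whole copies, and 99.0% against 97.3% in replicate 2. It exceeded that of the whole copy at 161 of 230 members (70.0%) and 111 of 148 (75.0%). The local stretch was identical to the parent at 53 and 43 members.

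Through the alignment, 230 members of replicate 1 and 148 of replicate 2 could be placed on the parent mRNA. All of them lay in coding sequence, but 98.1% and 97.8% of the aligned positions of these annotated copies are coding, so the share is near its background and is not a finding about the summits. The middle of the coding sequence, cut in 3 equal parts, held 43.9% and 52% of the summits, beside 33.4% and 33.1% of aligned positions. The median distance from the start codon was 314 nt (range 51 to 2477) and 272 nt (10 to 2320). Summits in different copies of the same parent were also set beside each other on the mRNA. No distance between other aligned positions was measured, so whether these summits lie closer or farther apart than such positions was not tested. The 51 pairs of such summits in replicate 1 were a median of 277 nt apart, and 7 were within 100 nt, while the 31 pairs in replicate 2 were 225 nt apart, with 4 within 100 nt.

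More of the summits than of the aligned positions lay within 50 nt of a place where 2 exons of the parent are joined. In replicate 1, 204 of 230 (88.7%, Wilson 95% interval 84.0 to 92.2%) were within 50 nt of such a junction, beside 67.6% of all aligned positions of the same copies and 68.6% of the coding ones. In replicate 2, 119 of 148 (80.4%, 73.3 to 86.0%) were, beside 68.3% and 69.4%. The median distance was 28.0 nt in both lists, beside 34 nt for aligned coding positions in either list, weighted equally per summit. Within 25 nt the excess was smaller, 44.8% beside 37.0% in replicate 1 and 44.6% beside 37.7% in replicate 2. Within 10 nt it was slight, 16.5% beside 14.9% and 15.5% beside 15.2%, so the summits did not gather at the junctions themselves. The comparison is a description with no test, since positions within a copy are not independent. Aligned positions were not matched to the summits for place in the coding sequence, whose middle part held more of the summits than of the positions.

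Single members show the range. RPL13AP5 had its summits 9 and 12 nt from a junction in replicates 1 and 2, RPS18P5 11 and 27 nt, TMSB4XP8 11 and 2 nt and PPIAP22 24 and 29 nt. EEF1A1P5 was farther off, at 84 and 48 nt, and so was RPS2P46, a copy of the RPS2 gene, at 64 and 66 nt.

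The parent genes themselves often had summits in their own exons. In replicate 1, 79 of 180 parents (43.9%, 36.8 to 51.2%) had one, beside 5.33% of parents whose annotated processed pseudogenes held none and 2.13% of all protein-coding genes. In replicate 2, 36 of 116 (31%, 23.3 to 39.9%) had one, beside 3.24% and 1.11%. These were 94 and 45 summits, with a κB match at 7 (7.45%) and 3 (6.67%) and a median −log10 q of 10.7 and 9.47. These κB shares are near those of the pseudogene summits (4.68% and 6.82%), a difference that was not tested, and 31 and 18 of them lay within 1 kb of a start site.

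On the mRNA, the exon summits of the parents lay elsewhere. Of those on the canonical transcript, 55 of 92 in replicate 1 and 25 of 45 in replicate 2 lay in the 3′ UTR, 33 and 17 in the coding sequence and 4 and 3 in the 5′ UTR. The last exon held 75.0% and 73.3% of them, beside 53.7% and 50.8% of the positions of these mRNAs. Just 3 of 92 (3.26%) and 1 of 45 (2.22%) lay within 50 nt of an exon junction, beside 30.3% and 30.8% of all positions of these mRNAs. The median distance to a junction was 254 and 190 nt. These summits were a median of 425 and 391 nt from the nearest pseudogene summit of the same list once both were placed on the mRNA, and 5 and 3 were within 100 nt of one. The annotated copies seldom extend into the UTRs, so the 3′ UTR was open to summits of the parents and hardly to members, whereas the distance to junctions was set beside positions of each kind.

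**Figure D4:**
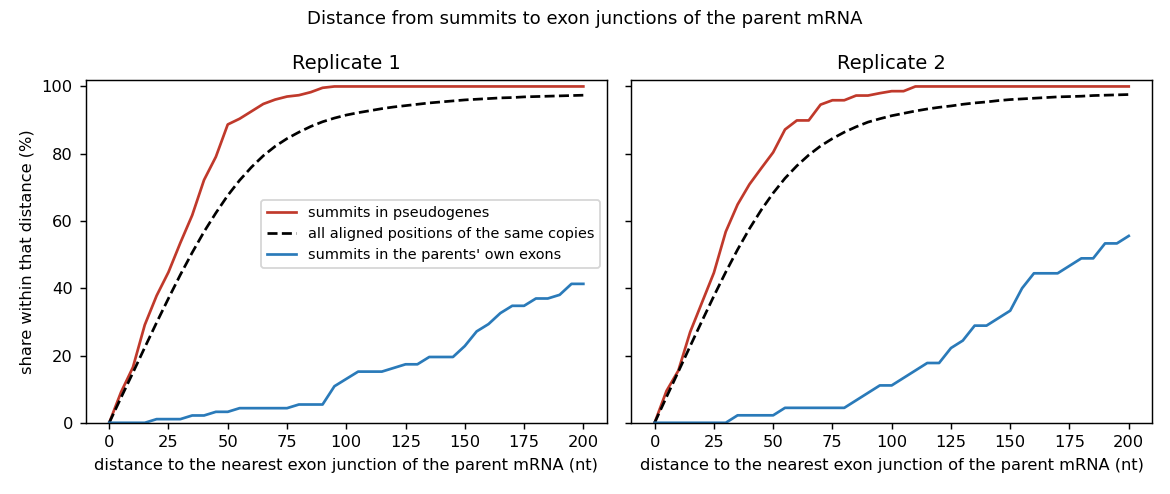
Share of summits within a given distance (nt) of the nearest exon junction of the parent mRNA, in each replicate. At 50 nt the pseudogene summits (red) reach 88.7% and 80.4%, above the 67.6% and 68.3% of all aligned positions of the same copies (dashed), while the summits in the parents' own exons (blue) reach 3.26% and 2.22%.

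EEF1A1 showed the arrangement most fully. Its pseudogene summits fell at positions 304 and 255 of the mRNA for EEF1A1P5, 1284 and 1306 for EEF1A1P6 and 776 for EEF1A1P13, all in the coding sequence. The gene's own strongest summit was at 1565 in replicate 1 and 1517 in replicate 2, in the 3′ UTR within the last exon of 2185 nt, with a −log10 q of 115 and 62.6. Another summit of replicate 1 in an EEF1A1 exon outside the canonical transcript had 3.22.

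TMSB4X had its own summits at positions 338 and 327 in the 3′ UTR, with a −log10 q of 105 and 57.4, and those of TMSB4XP8 at 186 and 174 in the coding sequence. PPIA had its own at 611 and 564, also in the 3′ UTR, with 76.2 and 24.9, and those of PPIAP22 at 210 and 205. GAPDH had its own in the coding sequence, at 827 and 921, inside its exon of 413 nt, with 69.4 and 32.7. The exon summits were 152 and 153 nt from the nearest pseudogene summit of the same list in TMSB4X, 123 and 359 nt in PPIA and 302 and 425 nt in GAPDH.

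**Figure D5:**
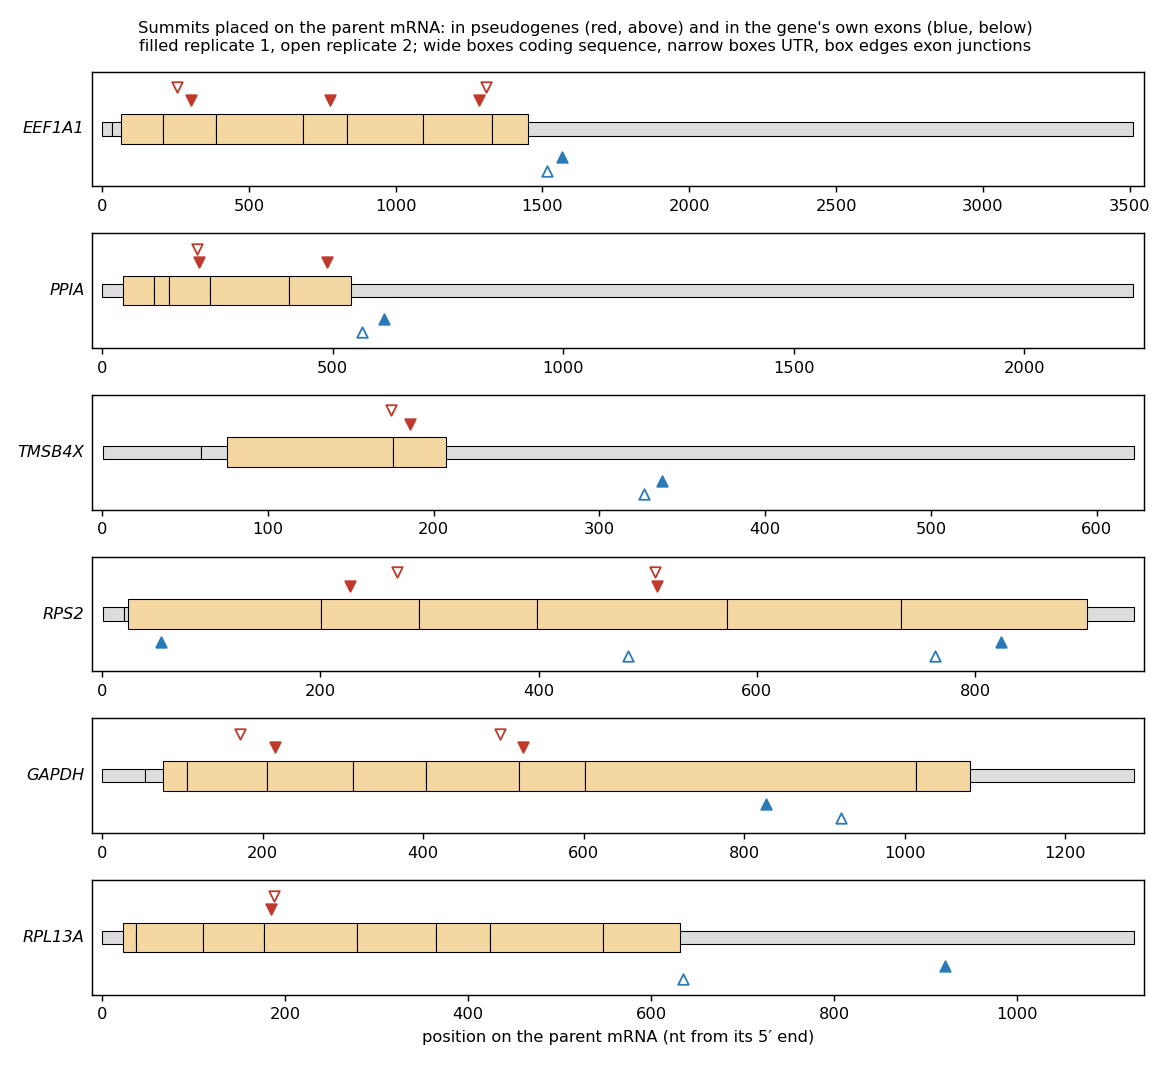
Places of summits on 6 parent mRNAs (nt from the 5′ end), with those in pseudogenes above (red) and those in the gene's own exons below (blue), filled for replicate 1 and open for replicate 2. Box edges are exon junctions, wide boxes coding sequence and narrow boxes UTR, and in EEF1A1, PPIA, TMSB4X and RPL13A every exon summit drawn lies downstream of the coding sequence while the pseudogene summits lie within it.

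ACTB, the β-actin gene, had the strongest exon summit of any parent, at position 1393 in the 3′ UTR with a −log10 q of 171 in replicate 1 and at 1508 with 84.6 in replicate 2. It had another in the coding sequence, at 332 and 339, with 39.0 and 20.2. PTMA and CFL1, the genes of prothymosin α and of the actin-severing protein cofilin, had their strongest in the 3′ UTR with 103 and 71.6, and with 79.1 and 27.7. CFL1 had another in the coding sequence, at 233 and 208, with 47.8 and 14.8. HMGB1, a chromatin protein gene, had 39.1 and 20.6 in a last exon of 4830 nt. The ribosomal genes RPS2 and RPL29 had exon summits in the coding sequence. RPS2 was an exception in replicate 2, where its summit at position 482 came within 25 nt of a pseudogene summit on the mRNA.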

How the data were processed

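p52 ChIP-seq summits of 2 replicates of TWEAK-treated MDA-MB-231 cells were used. Chromatin was sheared to 200 to 500 bp. The submitters' processing notes name Trimmomatic, Bowtie2, MACS2, deepTools and hg38, and their versions and the q-value threshold are not given in the sources used here. The lists were given for each replicate. The study's methods describe subtraction of input signal and removal of blacklisted regions for ChIP-seq in general. They name antibodies to H3K27ac and MAFG and do not describe the p52 ChIP, so these steps are taken to hold for it. The deposited lists held 1 position per peak and a value read, from the column layout of MACS2, as −log10 of the q-value.

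Annotation was GENCODE release 44. Parents were read from the symbol before the final P and number. Copies were aligned to the MANE Select or canonical transcript with blastn 2.17.0, and copies of 31-mers were counted in hg38 without alternate and fix sequences. Motifs were sought within 100 bp, and summits within 200 bp counted as shared. Fisher's exact tests were two-sided, with Woolf intervals (0.5 added) and Benjamini-Hochberg adjustment over 6 tests. No test was made of −log10 q. Scripts ran in Python 3.11.15 with scipy 1.17.1, pysam 0.24.0 and samtools 1.23.1, and were tested on simulated data.

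Members, gene lists and tests were chosen with earlier results of these data known. Items named were the 10 pseudogenes present in both lists whose ranks averaged highest, the 10 parents with the most copies holding summits, up to 10 members with a κB match, the strongest member of each gene list and up to 10 parents with exon summits in both lists, although not all of these are described. RPL13A in the plot of mRNA places, and RPS3P3, ENSG00000185641 and RPL21P16 as sequences, were chosen after their values were seen.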

Additional observations from a re-analysis of the deposited data

Results flagged for a closer look

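Summits in a processed pseudogene that also lay in an exon of a protein-coding gene were left out by the definition of members. They numbered 8 in replicate 1 and 6 in replicate 2. RPS11P5, which overlaps an exon of GOLGA3, had the strongest, with a −log10 q of 110 and 70.0. The only κB match among them was at ENO1P1 in replicate 2.

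Unprocessed pseudogenes, which arise by duplication of genomic DNA and keep introns, were not compared on their own and stood among the other summits in the tests. Summits in them numbered 13 in replicate 1 and 8 in replicate 2, among 3570 annotated copies. A κB match was present at 7 (53.8%, Wilson 95% interval 29.1 to 76.8%) and at 5 (62.5%, 30.6 to 86.3%). The difference from the processed pseudogenes was not tested.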

How the results depend on the processing

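Of 54 values recomputed under an alternative, 48 stayed on their side of the threshold or within their interval. The odds ratio for κB stayed between 0.0101 and 0.0323 in replicate 1 and between 0.0112 and 0.0389 in replicate 2, and that for AP-1 between 0.0640 and 0.228 and between 0.107 and 0.226, all past the threshold, over matches within 50 bp, 1 summit per parent, the stronger 50% of each list, exons of protein-coding transcripts alone, comparison with summits outside exons, and mostly single-copy windows. Sharing in replicate 1 passed the threshold with summits within 500 bp (odds ratio 1.33) and with 1 summit per parent (1.39), and not within 100 bp (1.13), in the stronger 50% (1.17) or in lists of equal length (1.24). In replicate 2 it passed in each of these, between 1.51 and 2.73. The summit kept per parent was its strongest and other summits were not thinned, so for sharing that setting favours members.

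With 51-mers in place of 31-mers, mostly multi-copy windows fell to 27.7% and 31.8% of members, beside 7.20% and 12.5% of summits outside pseudogenes and exons. The excess of members near a junction over aligned positions, 21.1 and 12.1 percentage points within 50 nt, was 7.80 and 6.90 within 25 nt and 8.50 and 7.30 within 100 nt. Against coding positions alone, chosen after seeing the data, it was 20.1 and 11.0. The members' share of summits was 14.4% without replicate 1 and 15.4% without replicate 2. No paired analysis was possible because both samples belong to 1 group.

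Depth was unknown. With 2 replicates of 1 treatment and no control library, neither an effect of TWEAK nor a background level was measured.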
